A study of Rattus norvegicus with 16 samples.

Results

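The comparison is of rat kidneys exposed to ACTH with rat kidneys given saline. ACTH (adrenocorticotropic hormone) had been given to the right kidney in 2 rats, numbered 1 and 5, and saline to the right kidney in 4 rats, numbered 2, 4, 6 and 8. In every rat the untreated left kidney was the control. The members are the 12 kidneys of these 6 rats, chosen by the treatment in the array titles, out of 16 kidneys of 8 rats. The right kidneys of the other 2 rats had been given DEX, an abbreviation that the labels do not expand. To the comparison of ACTH with saline those 4 arrays added an estimate of the spread. They also counted in the mean signals that decided which probe sets were tested and shown, and in values given over all kidneys. The titles name 4 saline rats, whereas the description of the series speaks of 2 rats for each treatment, and the titles were followed. Dose, route, duration, age, sex and strain are not stated in the labels, and neither is whether ACTH also reached the left kidney of the same animal. Each value is the signal of 1 whole-kidney RNA on 1 array, so fewer cells of a type and less RNA per cell cannot be told apart.

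ACTH is a pituitary peptide hormone. It acts through the melanocortin 2 receptor, chiefly on the adrenal cortex, which answers by taking up cholesterol, moving it into mitochondria and making corticosteroids. In the kidney, glucocorticoids and mineralocorticoids act through nuclear receptors that bind DNA, and the collecting duct enzyme Hsd11b2 inactivates glucocorticoids before they can occupy the mineralocorticoid receptor. The rodent kidney is also a target of sex steroids, and several proximal tubule transcripts, Kap and Slco1a1 among them, are known to depend on androgen.

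For each rat the right minus left change was taken on the scale log2(signal + 16). The ACTH effect is the mean change of the 2 ACTH rats minus that of the 4 saline rats, so a positive effect means higher after ACTH. Over 5244 probe sets (groups of oligonucleotides that each report 1 or more transcripts), 26 passed an adjusted p of 0.05 in limma, which is 0.496% of those tested. Of these, 14 rose (0.267%) and 12 fell (0.229%). At an unadjusted p under 0.05 there were 495, or 9.44%. After quantile normalization 12 passed, 5 higher and 7 lower, and 0 passed without a term for the rat or with right kidneys alone. The 26 probe sets stand for 16 genes with a single symbol, 9 higher and 7 lower, and for 6 probe sets without one. Fewer probe sets had a large effect downward than upward: 38 (0.725%) had an effect of 1 or more and 15 (0.286%) an effect of −1 or less.

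Both ACTH rats changed more widely than the saline rats. The SD of the right minus left change over all tested probe sets was 0.36 in ACTH rat 1 and 0.38 in ACTH rat 5, against 0.20, 0.22, 0.24 and 0.27 in saline rats 2, 4, 6 and 8. A change of 1 or more in either direction was seen in 122 probe sets of rat 1 and 111 of rat 5, against 12, 9, 34 and 23 in the saline rats. Across probe sets, which are not independent replicates, the changes of the 2 ACTH rats correlated at r = 0.30. Pairs of an ACTH and a saline rat gave −0.01 to 0.23, and pairs of saline rats −0.08 to 0.13. Pairs that include a DEX rat ran more widely, from −0.10 to 0.54. The highest was DEX rat 3 with saline rat 4, and the 2 DEX rats gave 0.31. A value of 0.30 is thus not particular to rats that share a treatment. No kidney is shared between the rats of any pair.

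**Figure D1:**
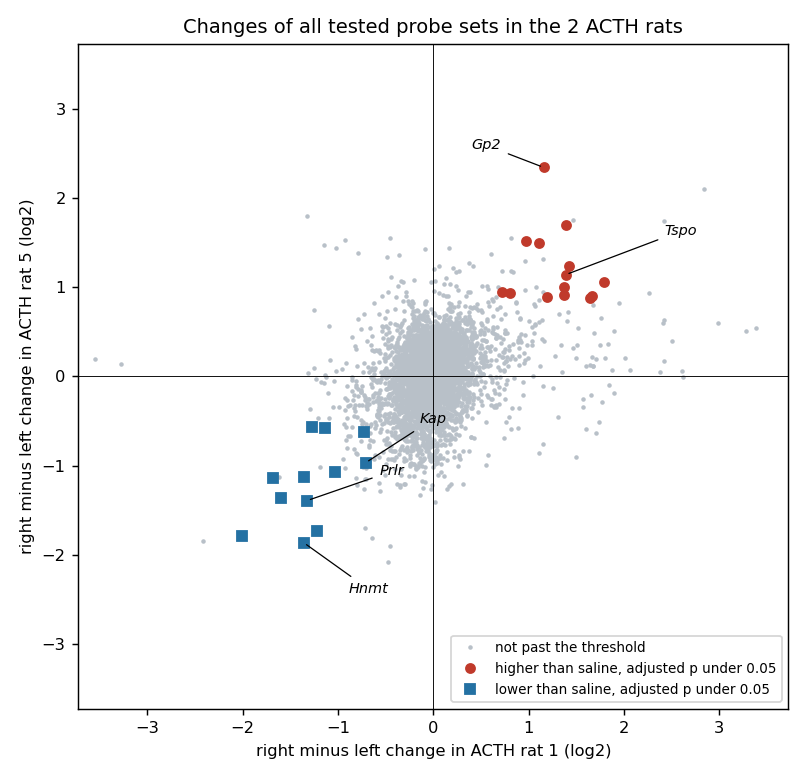
Right minus left change (log2) of each of the 5244 tested probe sets in ACTH rat 1 (horizontal) and ACTH rat 5 (vertical), with circles for the 14 probe sets that rose over saline and squares for the 12 that fell. All 26 lie in the 2 quadrants where both ACTH rats moved the same way, and many of the widest changes of rat 1 have small values in rat 5.

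The mitochondrial and secretory genes at the head of the rise were Tspo and Gp2. Tspo, the translocator protein of the outer mitochondrial membrane, binds cholesterol and is abundant in steroid-making cells. Its signal was 1383 and 1050 in the right kidneys of ACTH rats 1 and 5 and 519 and 468 in their left kidneys. In saline rats 2, 4, 6 and 8 it was 443, 434, 581 and 425 in the right kidneys and 421, 370, 583 and 445 in the left. Both ACTH right kidneys thus lay above all other kidneys of the comparison, and the left kidneys of the ACTH rats lay within the saline range. The Tspo effect was 1.21 ± 0.17 (SE, adjusted p = 0.00903), a 2.31-fold rise.

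Gp2 encodes a glycoprotein anchored in the membrane of pancreatic secretory granules and related to uromodulin, the main urinary protein made by the kidney. Its signal was 104 and 451 in the right and 37.8 and 76.3 in the left kidneys of ACTH rats 1 and 5, against 66.7, 37.1, 134 and 41.5 in the right and 64.2, 36.5, 121 and 39.0 in the left kidneys of the saline rats. Levels differed widely between rats, and the right kidney of ACTH rat 1 was below that of saline rat 6. Within rats the picture was narrower: the change was 1.16 and 2.34 in the ACTH rats and 0.02 to 0.13 in the saline rats. The effect of 1.69 ± 0.24 (adjusted p = 0.00958) was 1.09 without rat 5 and 2.28 without rat 1. Other pancreatic acinar genes did not accompany it. The pancreatic enzymes Prss1, Amy2a3 and Cpa1 averaged 38.1, 18.4 and 46.6 over all kidneys, under the 60.3 needed for testing. Others on that list were brighter, among them Cela1 at 343, Sycn at 186 and Ctrc at 112. Of its 9 tested markers only Gp2 passed, and 5 were above 0 (median effect 0.01).

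Among detoxifying enzymes, Gstm2, a mu-class glutathione transferase, rose in both of its probe sets. The brighter one gave 787 and 1278 in the right and 356 and 445 in the left kidneys of ACTH rats 1 and 5, against 517, 482, 462 and 462 in the right and 473, 465, 386 and 479 in the left kidneys of the saline rats. Its effect was 1.21 ± 0.18 (adjusted p = 0.00958), and that of the second was 1.53 (adjusted p = 0.0154). Mu-class transferases are near-identical in places and both probe sets are of the kind that can detect several transcripts, so their signal may be shared with paralogs. Gstm1, the closest such gene on the list, had 0.75, 0.88 and 1.12 in its 3 probe sets, of which 0 passed. Sult1a1, which sulfates phenols, had 1.55 ± 0.31, just short of the threshold (adjusted p = 0.0552). It changed by 1.95 in rat 1 and 0.82 in rat 5, and by −0.74 to 0.34 in the saline rats. Its second probe set had 1.71 (adjusted p = 0.0666).

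The prolactin receptor gene Prlr fell in both ACTH rats. Its brightest probe set gave 78.7 and 127 in the right kidneys of ACTH rats 1 and 5 and 221 and 360 in their left kidneys. In the saline rats it gave 262, 228, 263 and 267 in the right and 263, 210, 289 and 296 in the left kidneys. Both ACTH right kidneys were below every other kidney of the comparison. The effect was −1.32 ± 0.15 (adjusted p = 0.0047). A second probe set also passed, at −1.33 (adjusted p = 0.00958), and the remaining 2 had −1.08 and −0.50 and did not.

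Kap and Slco1a1, both known to depend on androgen in the proximal tubule, were lower as well. Kap, an abundant protein of proximal tubule cells in rodents, had signals of 2605 and 1842 in the right and 4276 and 3617 in the left kidneys of ACTH rats 1 and 5, against 5083, 5220, 2890 and 3274 in the right and 5391, 5241, 3005 and 3475 in the left kidneys of the saline rats. The ACTH right kidneys were the lowest of the 12, and the effect was −0.78 ± 0.12 (adjusted p = 0.018). Slco1a1, an organic anion transporter of the proximal tubule, had 107 and 55.4 in the right and 356 and 168 in the left kidneys of the ACTH rats, against 311, 350, 86.8 and 115 in the right and 389, 355, 117 and 134 in the left kidneys of the saline rats. The right-kidney signals of the groups overlapped, and among left kidneys those of rats 5, 6 and 8 were all below those of rats 1, 2 and 4. The effect, taken within rats, was −1.26 ± 0.16 (adjusted p = 0.00583).

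**Figure D2:**
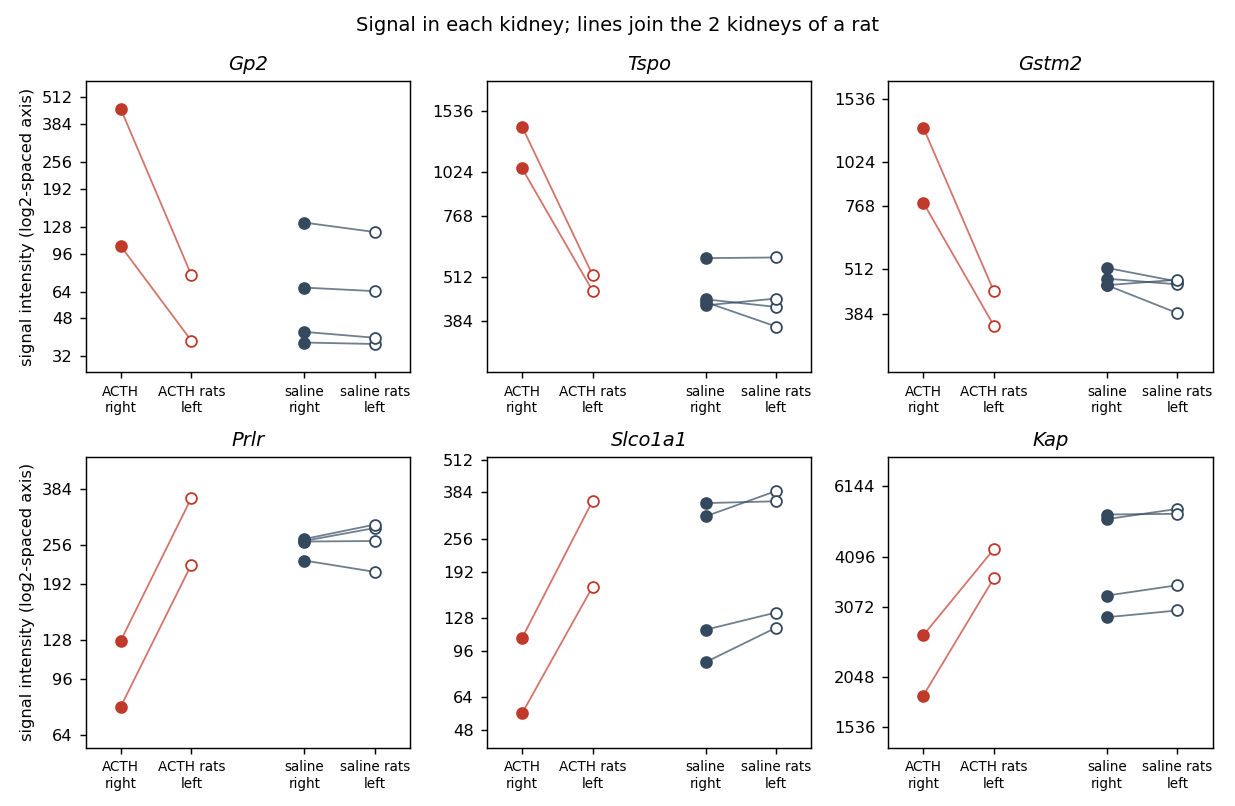
Signal intensity (log2-spaced axes, a scale for each gene) of Gp2, Tspo, Gstm2, Prlr, Slco1a1 and Kap in the right and left kidneys of the 2 ACTH rats and the 4 saline rats, with a line joining the kidneys of each rat. The lines of the ACTH rats are steep in all 6 genes, whereas those of the saline rats are close to level, and for Gp2 and Slco1a1 the right-kidney points of the groups overlap.

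Enzymes of methyl group transfer changed in both directions. Bhmt, which remethylates homocysteine to methionine with betaine, had 262 and 255 in the right and 106 and 130 in the left kidneys of ACTH rats 1 and 5, against 100 to 249 in the right and 111 to 237 in the left kidneys of the saline rats, and rose by 0.93 ± 0.16 (adjusted p = 0.033). Gnmt, which methylates glycine with S-adenosylmethionine, rose in 1 of its 3 probe sets, by 1.09 (adjusted p = 0.04), while the other two had 0.74 and 0.71. Hnmt, which methylates histamine, fell in both of its probe sets. Its brighter one gave 194 and 42.3 in the right and 523 and 196 in the left kidneys of the ACTH rats, against 79.5 to 443 in the right and 140 to 458 in the left kidneys of the saline rats. Its effect was −1.26 ± 0.23 (adjusted p = 0.0406), and the other had −1.23 (adjusted p = 0.0234). Mat2a, which makes S-adenosylmethionine outside the liver, had −0.84 and did not pass (adjusted p = 0.0658).

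The other rises were in genes of different roles. Ndrg2, known in rat collecting duct as an early aldosterone-induced transcript, had 662 and 299 in the right and 246 and 151 in the left kidneys of the ACTH rats, against 149 to 220 in the right and 183 to 195 in the left kidneys of the saline rats (effect 1.13 ± 0.20, adjusted p = 0.033). The glycolytic pyruvate kinase Pkm had 1484 and 1427 in the right and 842 and 738 in the left kidneys of the ACTH rats, against 818 to 942 and 814 to 919 in those of the saline rats (effect 0.87 ± 0.16, adjusted p = 0.04). Kcnq1, a voltage-gated potassium channel subunit, had 91.0 and 151 in the right and 49.1 and 70.7 in the left kidneys of the ACTH rats, against 67.4 to 84.6 and 63.8 to 79.9 (effect 0.73 ± 0.14, adjusted p = 0.0492). All 3 had ACTH right kidneys above every saline right kidney.

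The secreted nuclease Dnase1 differed from these in where the difference lay. Its signal was 2372 and 3127 in the right and 905 and 1553 in the left kidneys of ACTH rats 1 and 5, against 1920, 2241, 1981 and 2931 in the right and 1374, 1846, 1753 and 2822 in the left kidneys of the saline rats. The ACTH rats exceeded the saline rats by 0.28 in the right kidney and were at −0.66 relative to them in the left, and these combine to the effect of 0.94 ± 0.17 (adjusted p = 0.033). The second Dnase1 probe set, with an effect of 1.10 (adjusted p = 0.018), had 0.34 in the right and −0.75 in the left kidneys. These 2 were the only ones of the 26 probe sets whose difference was larger in the left kidneys, and in the other 24 it was larger in the right. Among the 26, both ACTH right kidneys lay beyond all 4 saline right kidneys in 21, against 11.0% of all tested probe sets. Both ACTH left kidneys lay beyond all 4 saline left kidneys in 1, the second Dnase1 probe set, against 5.4%. The 26 were chosen by the right minus left contrast, so these counts describe them and are no test.

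The remaining falls were in Col3a1, Gucy1b2 and B4galt6. Col3a1, a fibrillar collagen chain made by interstitial cells, had 162 and 226 in the right and 414 and 343 in the left kidneys of ACTH rats 1 and 5, against 278 to 485 in the right and 267 to 457 in the left kidneys of the saline rats (effect −1.07 ± 0.20, adjusted p = 0.0448). Its second probe set had −0.33 and did not pass. Gucy1b2, a subunit of the guanylate cyclase that responds to nitric oxide, had 91.6 and 124 in the right and 221 and 192 in the left kidneys of the ACTH rats, against 151 to 222 and 164 to 224 in those of the saline rats (effect −0.94 ± 0.18, adjusted p = 0.0492). B4galt6, which makes lactosylceramide, had 74.2 and 48.6 in the right and 134 and 83.6 in the left kidneys of the ACTH rats, against 76.9 to 125 and 75.6 to 98.0 in those of the saline rats (effect −0.85 ± 0.16, adjusted p = 0.0406). In all 3 the ACTH right kidneys were below every saline right kidney.

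Of the 6 probe sets past the threshold that carry no symbol in the array annotation, 3 rose and 3 fell. D31662exon#4_s_at gave 215 and 207 in the right and 913 and 755 in the left kidneys of ACTH rats 1 and 5, against 396 to 866 in the right and 594 to 842 in the left kidneys of the saline rats, and fell by 1.70 (SE 0.20, adjusted p = 0.0047). AF007758_g_at had −1.19 (adjusted p = 0.00903) and AB000717exons#1-8_s_at −0.86 (adjusted p = 0.0406). The rises were 1.31 for L14003UTR#1_f_at, 1.16 for L13235UTR#1_f_at (adjusted p = 0.0492 for each) and 1.19 for L14004UTR#1_s_at (adjusted p = 0.0448). The first 2 of these have signals that follow each other closely, 294 and 353 against 272 and 336 in the right kidneys of the ACTH rats, and their names mark them as probe sets that can detect related transcripts.

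**Figure D3:**
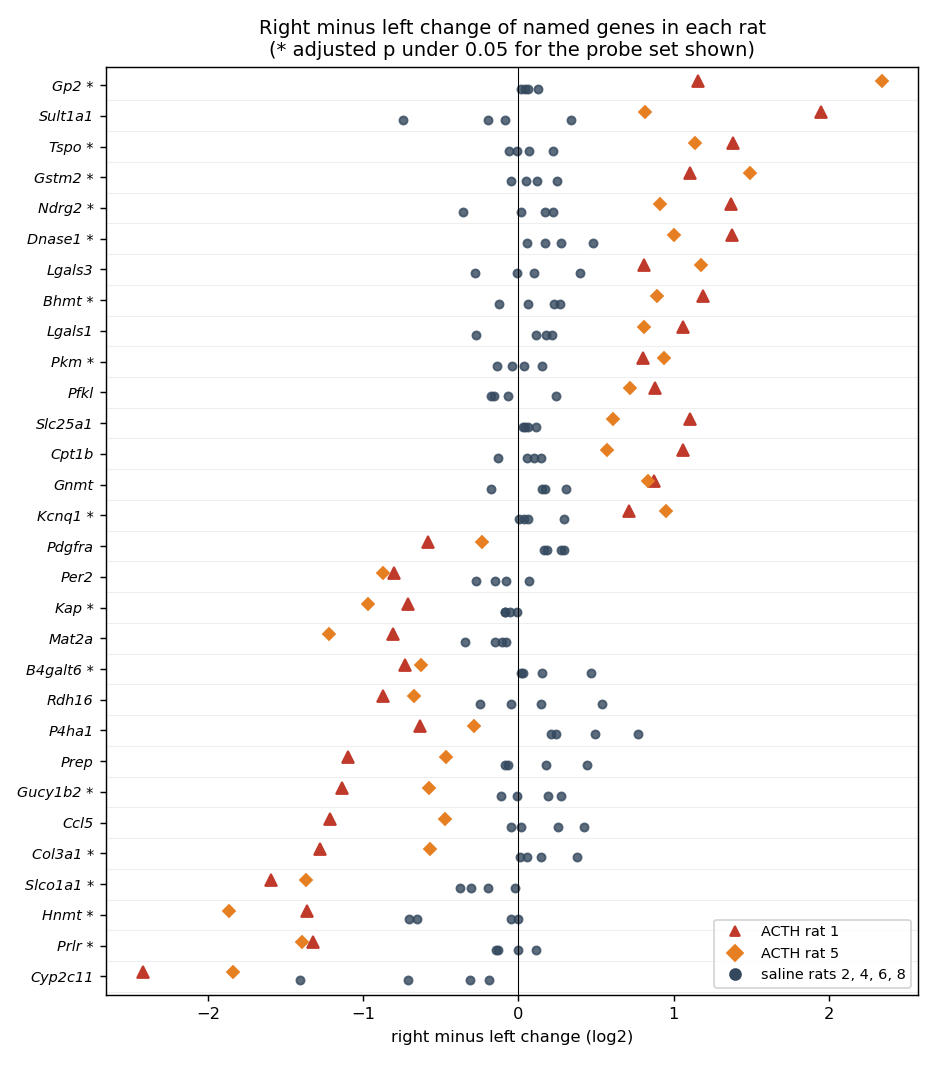
Right minus left change (log2) of the 30 named genes in ACTH rat 1 (triangles), ACTH rat 5 (diamonds) and the 4 saline rats (circles), each gene by its brightest probe set and ordered by its effect, with a star where that probe set passed. In each gene both ACTH rats lie beyond all 4 saline rats, which is how the genes without a star were chosen. Gnmt passed only by a dimmer probe set.

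The genes next in order of p all had both ACTH rats beyond all 4 saline rats, and 0 of them were past the threshold. A placement of both ACTH rats beyond all saline rats was found in 15.7% of tested probe sets, 7.82% above and 7.84% below. On the higher side were the galectins Lgals3 (0.94) and Lgals1 (0.88), which bind β-galactosides, the phosphofructokinase subunit Pfkl (0.84), the mitochondrial citrate carrier Slc25a1 (0.80) and the carnitine palmitoyltransferase Cpt1b (0.77, and 1.18 in a second probe set). Their adjusted p values ran between 0.0552 for Lgals3 and 0.0752 for Cpt1b. On the lower side was Cyp2c11, a male-typical steroid hydroxylase of rat liver. Its signal was 69.1 and 71.6 in the right and 438 and 297 in the left kidneys of ACTH rats 1 and 5, against 428, 270, 462 and 113 in the right and 713, 338, 528 and 324 in the left kidneys of the saline rats. The right kidney was thus lower than the left in all 6 rats, with changes of −2.42 and −1.84 in the ACTH rats and −1.40 to −0.19 in the saline rats (effect −1.47 ± 0.30, adjusted p = 0.0592). Its 2 other probe sets had −0.93 and −0.08. The chemokine gene Ccl5 changed by −1.21 and −0.47 in the ACTH rats and −0.05 to 0.42 in the saline rats (adjusted p = 0.0591). Effects were, for the prolyl endopeptidase gene Prep, −0.90, for the collagen prolyl hydroxylase subunit P4ha1, −0.89, for the retinol dehydrogenase Rdh16, −0.87, for the clock gene Per2, −0.73, and for the growth factor receptor Pdgfra, −0.64.

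The sequence upstream of the changed genes was read for the glucocorticoid response element, the DNA sequence bound by the corticosteroid receptors. RefSeq gave a promoter of 250 bases before and 50 after the start (build GRCr8) for 12 of the 16 genes past the threshold. The full element, AGAACA and then 3 bases of any kind and TGTTCT, was searched on both strands. It was in 0 of the 12, and in 2 of all 27457 promoters (0.00728%). The full element was so rare among all promoters that its absence from the 12 says nothing about them. Its first arm AGAACA alone, also searched on both strands and a part of the full element, was in 4 of the 12 (33.3%), against 20.1% of all promoters. They are shown here because they are the promoters of changed genes that hold this arm, written in capitals, which reads TGTTCT where it lies on the opposite strand. The Dnase1 promoter is chr10:12008195-12008494 on the minus strand, with the arm starting 104 bases before the start of the gene. Slco1a1 lies at chr4:176681943-176682242 on the minus strand, with it 133 bases before the start, Kap at chr4:168408983-168409282 on the minus strand, 212 bases before, and Hnmt at chr3:27010242-27010541 on the minus strand, 14 bases before.
Dnase1: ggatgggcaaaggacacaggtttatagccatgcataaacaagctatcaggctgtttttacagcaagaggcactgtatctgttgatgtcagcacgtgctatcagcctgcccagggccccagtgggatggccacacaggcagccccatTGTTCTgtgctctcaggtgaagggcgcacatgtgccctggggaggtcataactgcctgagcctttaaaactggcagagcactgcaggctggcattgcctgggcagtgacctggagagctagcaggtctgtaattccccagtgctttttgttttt
Slco1a1: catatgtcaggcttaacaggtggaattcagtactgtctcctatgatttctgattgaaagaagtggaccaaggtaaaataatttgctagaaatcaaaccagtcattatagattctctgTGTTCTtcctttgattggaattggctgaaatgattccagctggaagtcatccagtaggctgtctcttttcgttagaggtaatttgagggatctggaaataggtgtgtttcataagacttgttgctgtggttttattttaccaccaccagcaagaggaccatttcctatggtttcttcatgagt
Kap: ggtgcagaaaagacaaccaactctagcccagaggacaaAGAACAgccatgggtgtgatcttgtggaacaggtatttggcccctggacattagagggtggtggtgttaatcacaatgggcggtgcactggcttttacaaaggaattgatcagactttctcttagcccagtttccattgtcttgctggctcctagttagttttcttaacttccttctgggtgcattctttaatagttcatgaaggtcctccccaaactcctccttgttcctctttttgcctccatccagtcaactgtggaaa
Hnmt: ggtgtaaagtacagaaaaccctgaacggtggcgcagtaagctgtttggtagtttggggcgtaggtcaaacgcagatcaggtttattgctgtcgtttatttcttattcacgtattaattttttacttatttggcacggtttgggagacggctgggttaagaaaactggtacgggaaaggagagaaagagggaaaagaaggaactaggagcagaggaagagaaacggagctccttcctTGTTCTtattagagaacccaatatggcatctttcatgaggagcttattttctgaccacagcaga
Dnase1 rose and the other 3 genes fell. A match describes these letters only and marks no site of binding.

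Lists of genes were described by their counts and medians, with 1 probe set per gene. Over all tested probe sets the median effect was −0.00 and 49.9% had an effect above 0. The lists were drawn up with earlier results of these arrays known, so their direction is no independent evidence.

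Genes of corticosteroid action showed little beyond single members. Of 12 corticosteroid-induced regulators 0 passed, 9 were above 0 and the median was 0.21. Sgk1, the kinase that stimulates distal sodium transport and is induced by corticosteroids, had 472 and 419 in the right and 478 and 323 in the left kidneys of ACTH rats 1 and 5, against 417 to 670 in the right and 435 to 707 in the left kidneys of the saline rats. The groups overlapped in both kidneys, and the effect was 0.27 ± 0.28 (adjusted p = 0.86), with −0.27 in the right kidneys alone. Klf9, a transcription factor, had −0.58 and the gluconeogenic Pck1 had 0.74. Among 10 corticosteroid receptor and steroid metabolism genes (0 passed, 3 above 0, median −0.04), the glucocorticoid receptor Nr3c1 had −0.09 ± 0.14, Hsd11b2 0.38 ± 0.22 and the peroxisomal Hsd17b4 −0.51. The change of Hsd11b2 was 0.91 in rat 5 and 0.10 in rat 1. Of 7 genes of mitochondrial cholesterol transfer and steroid synthesis only Tspo passed (median 0.10), and Dbi, a ligand of Tspo, had 0.24.

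Transport genes of the distal nephron had a larger mean change in ACTH rat 5 than in ACTH rat 1. Of 14 sodium and potassium transport genes, 10 were above 0 and Ndrg2 alone passed, with a median of 0.13, and the list's mean change was 0.04 in ACTH rat 1 and 0.39 in ACTH rat 5, against −0.10 to 0.12 in the saline rats. Klk1, the tissue kallikrein released by the connecting tubule, had 0.40. Collecting duct markers (9 of 12 above 0, median 0.19) include the sodium channel subunits Scnn1a at 0.45 and Scnn1b at 0.38. The mean change of these markers was −0.25 in ACTH rat 1, below all saline rats (−0.13 to 0.24), and 0.57 in ACTH rat 5, above them. By rats 1 to 4 alone their median was −0.19, and by rats 5 to 8 alone 0.63. For the transport list these medians were −0.01 and 0.31. The part of collecting duct cells in the result was not tested. The water channel Aqp2, which defines those cells, had 986 and 2250 in the right and 1299 and 1210 in the left kidneys of ACTH rats 1 and 5. In the saline rats Aqp2 had 970 to 1611 in the right and 1047 to 1308 in the left kidneys. Of 10 potassium channel genes Kcnq1 passed (median −0.05), and its accessory subunit Kcne1 had 0.42.

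The list of sex-typical genes held 3 of the falls. In this list of androgen-regulated and sex-typical kidney genes 3 of 10 passed as lower (Prlr, Slco1a1 and Kap). Cyp2c11 had −1.47 and the other 6 had −0.32 to 0.11. The median was −0.24, with 6 of the 10 below 0. By rats 1 to 4 alone that median was −0.57, and by rats 5 to 8 alone 0.01. For comparison, 0.229% of all tested probe sets passed as lower, and 49.9% had an effect above 0. The list's mean change was −0.65 and −0.48 in the ACTH rats and −0.15 to 0.07 in the saline rats. Of 9 genes of prolactin and growth hormone signalling only Prlr passed (median 0.05), and Cish, a target of these receptors, had 0.57. Of 12 organic anion and cation transporters only Slco1a1 passed (median −0.08), with the carnitine transporter Slc22a5 at −0.60. Of 18 cytochromes P450, 0 passed (median 0.01), and after Cyp2c11 the smallest p was that of Cyp4b1 at −0.31. Of 22 angiotensin, kallikrein and vasoactive genes 0 passed (median −0.02). The angiotensin receptor Agtr1a had −0.59 (adjusted p = 0.131), with −0.65, −0.54 and −0.43 in its 3 other probe sets, and the aminopeptidase Anpep had −0.70. Of 9 nitric oxide and cyclic GMP genes Gucy1b2 passed (median −0.01) and Ddah1 had −0.30.

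**Figure D4:**
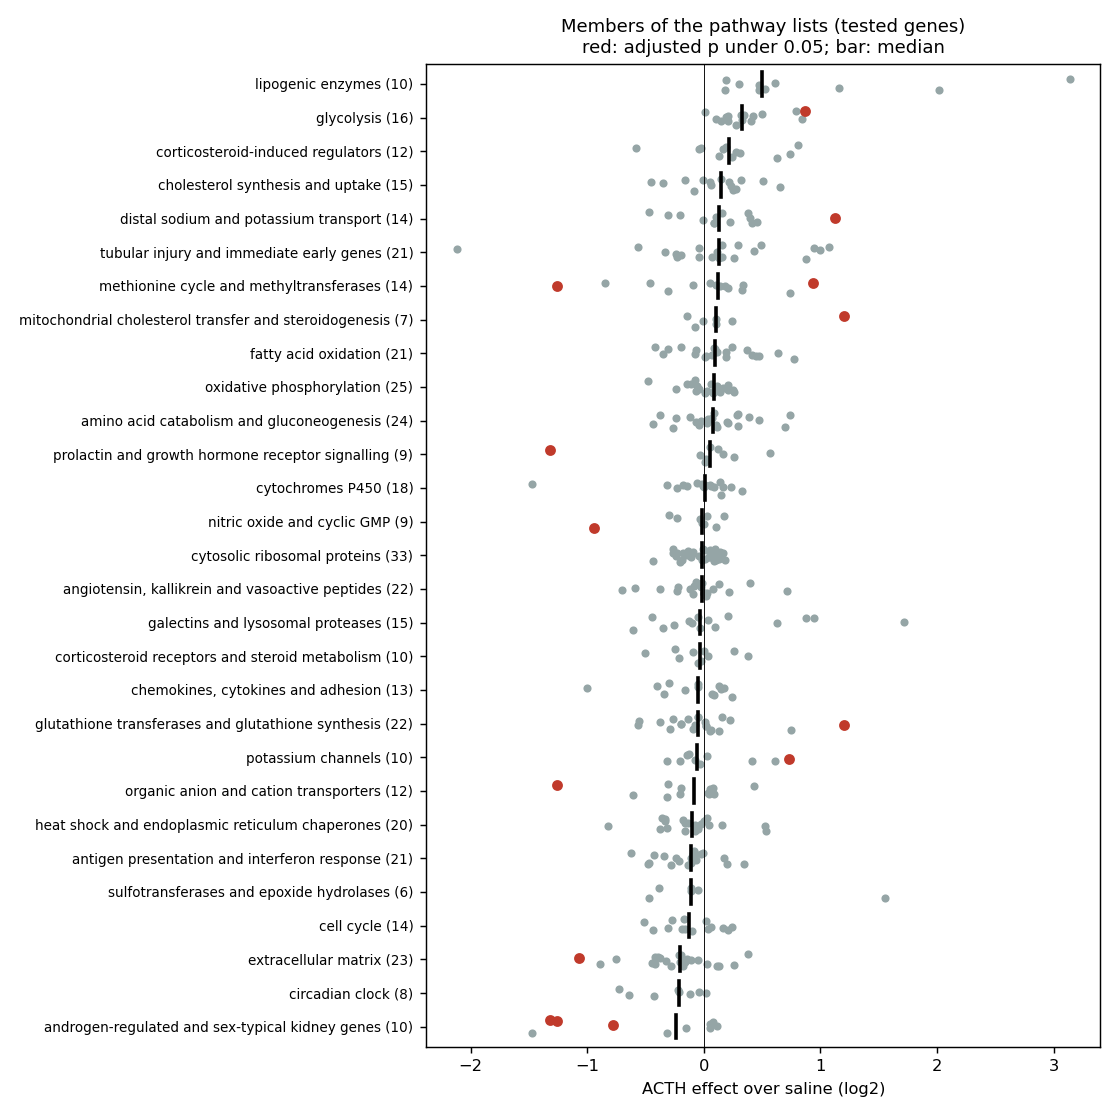
ACTH effect (log2) of each tested gene of the 29 pathway lists, with the number of genes in brackets, larger red points for those past the threshold and a bar at the median. The medians run between 0.50 for lipogenic enzymes and −0.24 for androgen-regulated and sex-typical genes, and most points past the threshold lie outside the range of the rest of their list.

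Among genes of sugar and fat metabolism 1 passed. All 16 tested glycolysis genes had an effect above 0 (median 0.32), against 49.9% of all tested probe sets. In 9 of the 16 both ACTH rats were above all saline rats, against 7.82% of all tested probe sets. Pkm passed, and 0.267% of all tested probe sets passed as higher. The list's mean change was 0.31 and 0.50 in ACTH rats 1 and 5, against −0.05 to 0.16 in the saline rats. All 10 lipogenic enzymes were above 0 (median 0.50) with 0 past the threshold, among them the citrate lyase Acly at 1.16 ± 0.30 (adjusted p = 0.131) and the desaturase Scd at 3.14 ± 0.91 (adjusted p = 0.209). Scd signal was 6416 and 535 in the right and 1190 and 148 in the left kidneys of the ACTH rats, against 85.5, 29.3, 225 and 53.8 in the right and 61.9, 113, 2347 and 45.0 in the left kidneys of the saline rats, with the left kidney of saline rat 6 far above the others. Of 21 fatty acid oxidation genes 15 were above 0 and 0 passed (median 0.10, or 0.18 by rats 1 to 4 alone and 0.01 by rats 5 to 8 alone), with Cpt2 at 0.63. Of 15 cholesterol synthesis and uptake genes 10 were above 0 and 0 passed (median 0.15), with Mvd at 0.50 and Sqle at −0.45, both enzymes of the sterol pathway.

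Markers of white and brown fat moved with these lists. All 10 tested fat markers were above 0 (median 1.01), and 0 passed. Scd and Lpl are also on the lipogenic list. The summed signal of the 10 fat markers was 13476 and 2151 in the right kidneys of ACTH rats 1 and 5. In their left kidneys it was 3813 and 1546. In the saline rats it was 1389 to 2036 in the right and 1315 to 4304 in the left kidneys. Of the defining markers, the brown fat uncoupling protein Ucp1 had 1119 and 106 in the right and 501 and 62.7 in the left kidneys of the ACTH rats. In the saline rats Ucp1 had 44.6 to 142 in the right and 62.7 to 255 in the left kidneys, so the right kidney of ACTH rat 5 lay within the saline range. The adipocyte fatty acid binding protein Fabp4 had 1284 and 100 in the right and 213 and 72.1 in the left kidneys of the ACTH rats. In the saline rats Fabp4 had 55.5 to 85.8 in the right and 54.5 to 157 in the left kidneys. None of the 10 was at 0. The glucose transporter Slc2a4, the fat marker with the smallest p, had 1.19. The right kidney of rat 1 thus stood far above the rest, and the median of the fat list was 0.40 without that rat. With a fat marker score as a covariate the median was 0.16 for lipogenic enzymes and 0.37 for glycolysis, and 9 probe sets passed in all, 4 of them among the 26. Of the 22 genes and unnamed probe sets called without the score, 3 were still past the threshold (Gp2, Gstm2 and Prlr) and 19 were not, with effects between 0.53 and 1.36 times those without the score. Among the 19 were genes with smaller effects, such as Col3a1 at −0.60 and Bhmt at 0.58, and genes with like or larger ones, such as Tspo at 1.09 (adjusted p = 0.0743) and Hnmt at −1.71 (adjusted p = 0.0511). The part of fat tissue in the remaining values was not tested.

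**Figure D5:**
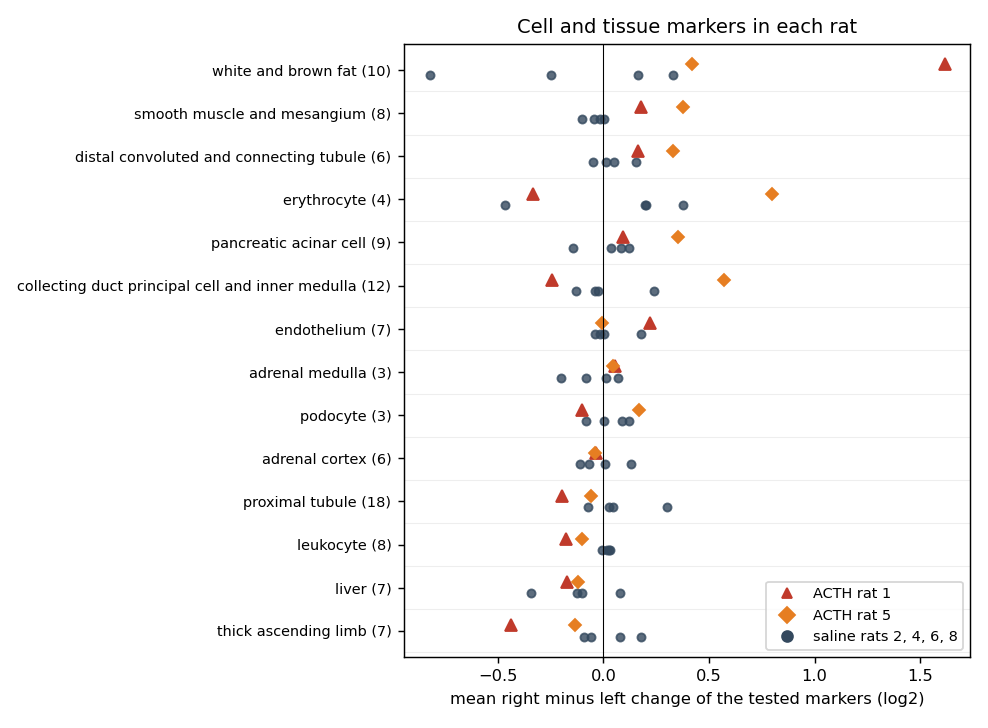
Mean right minus left change (log2) of the tested markers of each cell or tissue type (number of genes in brackets) in ACTH rat 1 (triangles), ACTH rat 5 (diamonds) and the saline rats (circles). Fat markers stand apart in rat 1, at 1.62, and erythrocyte and collecting duct markers stand apart in rat 5, at 0.80 and 0.57.

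Other metabolic lists had medians near that of all probe sets. Of 24 genes of amino acid catabolism and gluconeogenesis 16 were above 0 and 0 passed (median 0.08), with the transaminases Gpt at 0.69 and Got1 at 0.47. Of 14 methionine cycle and methyltransferase genes Bhmt rose and Hnmt fell (median 0.12). Of 22 glutathione genes Gstm2 passed (median −0.05), and Gclc, the catalytic subunit of glutathione synthesis, had −0.55. Of 6 sulfotransferases and epoxide hydrolases 0 passed (median −0.11, or 0.09 by rats 1 to 4 alone and −0.31 by rats 5 to 8 alone), with Ephx1 at −0.39. Of 25 oxidative phosphorylation genes 0 passed (median 0.08, Atp5f1a at 0.25 and Cox7b at −0.48), and of 33 cytosolic ribosomal proteins 0 passed (median −0.02, Rps3a at −0.44 and Rpl19 at −0.27).

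In the clock, matrix and immune lists 1 gene passed. Of 8 circadian clock genes 7 were below 0 (median −0.22), with Per2 at −0.73 and the repressor Nr1d2 at −0.64. Of 23 extracellular matrix genes 18 were below 0 (median −0.20), and Col3a1 alone passed. The matrix median was −0.01 with the fat score as a covariate and −0.11 without rat 1. Of 21 genes of antigen presentation and interferon response 18 were below 0 (median −0.11), with the class II chaperone Cd74 at −0.62 and the class II chain RT1-Ba at −0.48. By rats 1 to 4 alone its median was −0.34, and by rats 5 to 8 alone 0.07. The mean change of that list was −0.38 in ACTH rat 1 and 0.05 in ACTH rat 5, against −0.08 to 0.00 in the saline rats. Leukocyte markers stood at 2 of 8 above 0 (median −0.18, Cd48 at −0.42 and Lyz2 at −0.35), with mean changes of −0.18 and −0.10 in the ACTH rats and −0.00 to 0.03 in the saline rats, and their part was not tested. Of 13 chemokine, cytokine and adhesion genes 6 were above 0 and 0 passed (median −0.05), with Vcam1 at −0.34 beside Ccl5.

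Stress and growth lists were mixed. Of 21 tubular injury and immediate early genes 13 were above 0 and 0 passed (median 0.13, and −0.28 within rats 1 to 4 against 0.37 within rats 5 to 8). Of 15 galectins and lysosomal proteases 0 passed (median −0.04). Of 20 heat shock and endoplasmic reticulum chaperones 0 passed (median −0.10), with Dnaja1 at −0.82 and Hspa1a at 0.53. Of 14 cell cycle genes 0 passed (median −0.13), with Top2a at −0.51 and Pcna at −0.43.

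Markers of the labelled tissue ranged from very bright to dim. The proximal tubule phosphate transporter Slc34a1 averaged 5622 over all kidneys, its alkaline phosphatase Alpl 5870 and the thick limb protein Umod 2522, against a median of 156 over all tested probe sets. Other markers averaged less than that median. Among them were Slc13a1 of the proximal tubule (114), Slc12a1 of the thick limb (120) and the podocyte markers Synpo (139) and Wt1 (112). Of 18 proximal tubule markers Kap alone passed (median −0.19, or −0.37 by rats 1 to 4 alone and 0.02 by rats 5 to 8 alone). No marker passed in the other tubule lists, which had medians of −0.21 for 7 thick ascending limb genes (Egf at −0.73 and Casr at −0.62; by rats 1 to 4 alone −0.43, by rats 5 to 8 alone 0.00) and 0.25 for 6 distal convoluted and connecting tubule genes (Calb1 at 0.53). Smooth muscle and mesangium markers had 7 of 8 above 0 (median 0.33), with Tagln at 0.61 and Acta2 at 0.49, and mean changes of 0.18 and 0.38 in the ACTH rats against −0.10 to 0.00 in the saline rats. Endothelial (7 genes, median 0.00, Cav1 at 0.87 and Kdr at −0.21) and podocyte markers (3 genes, median −0.01, Synpo at 0.13 and Wt1 at −0.11) held 0 past the threshold. The 2 intercalated cell markers had 0.15 for Slc4a1 and 0.08 for Car2.

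In the adrenal, liver and erythrocyte lists 0 markers passed, and signals ran from dim to very bright. Among adrenal cortex markers (6 genes, median 0.02, Nr5a1 at −0.33 and Cyp21a1 at 0.10), the steroidogenic genes Star and Cyp11b2 averaged 36.6 and 40.5 and were too dim to test. Scarb1 and Fdx1, on the same list, averaged 494 and 307. Adrenal medulla markers (3 genes) had a median of 0.05, with Npy at 0.23 and Th at 0.05. Of 7 liver genes 0 passed (median 0.08), with albumin, Alb, at 0.60 and a mean signal of 65.5. Cyp2c11, also on the liver list, had −1.47 and a mean signal of 306. Blood transcripts were bright, with means of 3468 for the hemoglobin gene Hbb and 2001 for Hbb-b1. The 4 erythrocyte genes had a median of 0.16, with Alas2 at 0.29, and mean changes of −0.33 in ACTH rat 1 and 0.80 in ACTH rat 5, against −0.47 to 0.38 in the saline rats. ACTH rat 1 thus lay within the saline range and ACTH rat 5 above it. By rats 1 to 4 alone the median was −0.62, and by rats 5 to 8 alone 0.90.

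The right and left kidneys of the ACTH rats were also compared directly. This uses the same ACTH arrays as the effect and is no separate evidence. In limma 187 of 5244 probe sets differed (3.57%), 106 higher (2.02%) and 81 lower (1.54%) in the right kidney, and 98 genes with a single symbol were among them by their brightest probe set, 55 higher and 43 lower. In the saline rats 0 probe sets passed the same limma test, and 196 (3.74%) had an unadjusted p under 0.05. The fit averages 4 saline rats and 2 ACTH rats, and no other tool was run on this comparison. Lipogenic genes were again present, with 5 of 10 higher in the right kidney, among them Fasn by 1.96 and Scd2 by 1.61. Scd2 was also higher in the right kidney of the saline rats, where its mean change was 1.00 and did not pass. In the glycolysis list 4 of 16 were higher, namely Pkm, Pfkl, Pfkm and Aldoa. Lower in the right kidney were Egf (−0.78), Agtr1a (−0.72) and the clock genes Per2 (−0.84) and Nr1d2 (−0.75).

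The arrays fell into rats 1 to 4 and rats 5 to 8, which the labels do not name. The first principal component, with 45.7% of the variance, placed all kidneys of rats 1 to 4 between −15.3 and −11.2 and those of rats 5 to 8 between 9.48 and 17.4. Each set holds 1 ACTH rat and 2 saline rats of this comparison. All 26 probe sets had the same sign in both sets. In each of the 26 both ACTH rats lay beyond all 4 saline rats on the same side. The shared sign follows from that placement and adds nothing to it. The effect within rats 1 to 4 and within rats 5 to 8 was 1.24 and 1.17 for Tspo, 1.13 and 2.24 for Gp2, −1.38 and −1.26 for Prlr, −1.43 and −1.08 for Slco1a1 and −0.67 and −0.90 for Kap. With 1 ACTH rat in each set, these values have no test.

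Single rats decided how many probe sets passed. Leaving out ACTH rat 1 gave 46 and leaving out ACTH rat 5 gave 114, each with 1 ACTH rat left, whose spread is assumed to equal that of the other rats. Leaving out saline rat 2, 4, 6 or 8 gave 11, 9, 12 or 14, and leaving out DEX rat 3 or 7 gave 12 or 13. Of the 22 genes and unnamed probe sets past the threshold, 7 passed without any 1 rat: Tspo, Gp2, Gstm2, Prlr, Slco1a1, AF007758_g_at and D31662exon#4_s_at. The other 15 missed the threshold without at least 1 rat. All 22 had the same sign in each of the 19 alternative fits.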

How the data were processed

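RNA of both kidneys of 8 rats was measured on 1-colour oligonucleotide arrays, 1 per kidney. Per the labels' protocols, total RNA was extracted with Tri-Reagent, cleaned on spin columns and made into biotinylated cRNA. The authors deposited signal intensities on a linear scale, from 5.18 to 12664. Which software and normalization they used is not given in the sources used here. Array medians lay between 76.0 and 82.4, and no further scaling was applied. The number of arrays limits the precision.

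Values became log2(value + 16). After 59 control probe sets were removed, 8740 remained, and the 40% with the lowest mean (3496) were left out. In the platform annotation 7006 probe sets had 1 gene symbol, 308 had several and 1426 had none. Each probe set was fitted with limma 3.58.1 (R 4.3.3) over all 16 arrays, with a term for each rat, the right kidney, ACTH in the right kidney and DEX in the right kidney, and an intensity trend (5 residual and 7.34 prior degrees of freedom). P-values are two-sided and Benjamini-Hochberg adjusted over 5244 probe sets, and 0.05 is the threshold. The code was tested on simulated data. The design pairs the kidneys of a rat. Across probe sets, the deviations of both kidneys from their group means correlated at 0.62 to 0.76. Each treatment group held rats from both sides of the split on the first principal component, so these correlations include that split. Both ACTH rats had the same value (0.65), as did both DEX rats (0.76), because deviations from the mean of a pair mirror each other. Whether the kidneys of a rat were alike beyond that split was not tested.

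Named were all genes with a probe set past the threshold, then genes in order of p with both ACTH rats beyond all saline rats, up to 15 in each direction, the 2 members of each list with the smallest p, and Sgk1, Nr3c1 and Hsd11b2. Any other gene was chosen after its values were seen. The comparison, the members and the 44 gene lists were chosen with earlier results of these data known. Promoters are RefSeq's (GRCr8). Alternatives were another pseudocount, filter or normalization, no trend, no rat term, right kidneys only, a fat score, a term for rats 5 to 8 and each rat left out.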

Additional observations from a re-analysis of the deposited data

Results flagged for a closer look

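In 3 of 96 groups of 4 saline rats, 1 rat's right minus left change stood apart from the other 3 (its gap over the range was above Dixon's 95% critical value, which chance exceeds in about 1 group of 20). For Sgk1, saline rat 8 had −0.21, against −0.08 to −0.06 in the other saline rats. For Nr5a1, the adrenal and gonadal transcription factor, saline rat 2 had −0.23, against 0.36 to 0.40. Nr5a1 was dim, with a mean signal of 66.0 over all kidneys, close to the 60.3 needed for testing. For the probe set L14003UTR#1_f_at, saline rat 8 had −0.49, against 0.28 to 0.35. Its effect was 1.10 without that rat and 1.31 with it.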

How the results depend on the processing

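The count of 26 probe sets for ACTH was 13 with ACTH and saline rats only, 12 after quantile normalization (5 higher and 7 lower, against 14 and 12), 9 with the fat score as a covariate, and 0 both without the replicate block (no term for the rat) and with right kidneys only. Leaving out each rat gave 9 to 114. The 12 and the 13 were all among the 26. For right over left in the ACTH rats the count of 187 was 119 with ACTH and saline rats only, 4 without the replicate block, 290 with a term for the right kidney of rats 5 to 8, and 119 to 272 with each rat left out. For right over left in the saline rats, where 0 passed, 1 passed with the dimmest 20% left out, with no filter, without the trend, with a pseudocount of 1 and after quantile normalization (Scd2 in each case), 4 with the fat score (2 probe sets each of Scd2 and Eef2), and 0 to 1 with each rat left out. No result changed sign while called. Of 43 lists, 16 had a median of the same sign in all 21 settings. The causes were not tested. Dim probe sets limit what can be seen, since 3496 were not tested.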

Other observations

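Further genes passed between the right and left kidneys of the ACTH rats in limma but missed the threshold in the effect over saline. Missing it does not show that they were unchanged relative to saline. They were chosen after their values were seen. The alcohol dehydrogenase Adh1c was higher in the right kidney by 1.04 (adjusted p = 0.00657), with 761 and 803 in the right and 354 and 392 in the left kidneys of ACTH rats 1 and 5. In the saline rats it had 291 to 370 in the right and 267 to 407 in the left kidneys, and its effect over saline was 0.95 (adjusted p = 0.0798). The lysosomal protease Ctsd was higher by 0.84 (adjusted p = 0.00309), with 2196 and 2252 in the right and 1201 and 1264 in the left kidneys of the ACTH rats. In the saline rats Ctsd had 1454 to 1609 in the right and 1146 to 1498 in the left kidneys, and its effect over saline was 0.63 (adjusted p = 0.106). The creatine kinase Ckb was higher by 0.77 and the angiotensin precursor Agt by 0.93, which had changes of 1.51 in rat 1 and 0.35 in rat 5. The lens galectin-like gene Grifin was higher by 1.50, with 600 and 96.6 in the right kidneys and 100 and 58.3 in the left, so that most of it lay in rat 1. Gclc had −0.54, with 1467 and 1439 in the right and 1946 and 2309 in the left kidneys of the ACTH rats, against 1919 to 2533 and 2022 to 2191 in those of the saline rats.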
